A study of Bos taurus with 30 samples.

Results

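The endoplasmic reticulum (ER) folds the proteins that a cell secretes or places in its membranes, and the 35 genes described here encode its chaperones and the unfolded protein response. They were chosen by name: 9 chaperones and cochaperones, 5 disulphide isomerases and oxidases, 2 secreted ER stress proteins and 3 stress sensors. The others were 3 transcription factors, 3 targets of those factors, 9 genes of ER-associated degradation and 1 subunit of the translocon. Each of the 35 symbols matched 1 protein-coding gene identifier, of 27607 identifiers in each count table.

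When unfolded proteins build up in the ER, the membrane sensors IRE1 (ERN1), PERK (EIF2AK3) and ATF6 start the unfolded protein response. IRE1 splices the XBP1 transcript, PERK slows translation and favours ATF4, and ATF6 is cleaved to release a transcription factor. Together they raise chaperone and degradation genes, and under lasting stress the transcription factor CHOP (DDIT3). Endometrial epithelial cells secrete into the uterine lumen and stromal cells secrete matrix, so both rely on this machinery.

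Cow (Bos taurus) endometrial epithelial and stromal cells were sequenced after culture under flow in a microfluidic device, with epithelial cells seeded above and stromal cells below a porous membrane. The primary cells came from uteri of nonpregnant cows early in the luteal phase. In the glucose experiment (12 libraries) the medium held 5 or 50 mM glucose, and in the insulin experiment (18 libraries) it held vehicle (acetic acid in phosphate-buffered saline), 1 ng/mL or 10 ng/mL insulin in medium with 5 mM glucose, for 72 h at 1 µL/min. Every combination of cell type and treatment was a group of 3 libraries, numbered 1 to 3 and called biological replicates. The sources used here do not say whether a number marks 1 animal. The main tests took the replicate number as a block, setting libraries of the same number against each other. Their p-values therefore measure the spread of those differences between libraries, and not a spread known to lie between animals. The stromal population is described as enriched rather than pure.

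Library totals ran from 13493503 to 16647701 counts in the glucose experiment and from 8826470 to 13214728 in the insulin experiment. Levels are given in CPM, the count of a gene relative to the library total scaled by its TMM (trimmed mean of M values) factor, set separately in each experiment. Of 30 epithelial markers 29 were called higher in epithelial cells, and of 29 tested stromal markers 27 in stromal cells, in the insulin vehicle comparison. The level of epithelial markers in stromal libraries, as the median percentage of the epithelial mean, was at most 0.466% in 7 of the 9 insulin libraries, 4.41% in vehicle replicate 2 and 3.79% in 10 ng/mL replicate 1. In the glucose experiment it was 9.06%, 0.0525% and 0.158% in stromal replicates 1 to 3 at 5 mM, and 17.8%, 6.37% and 59.8% at 50 mM. Stromal markers in epithelial libraries stood at 1.86 to 12.5% of the stromal mean. In sum, immune markers reached at most 20.6 CPM in any library and endothelial markers 79.8 CPM. These sums cover only the 5 immune and 7 endothelial markers that matched an identifier, not the whole lists. Smooth muscle and pericyte markers summed to 43.3 to 458 CPM in libraries of epithelial cells and 858 to 4841 CPM in those of stromal cells. In bulk libraries such as these, fewer cells of a type and less RNA per cell cannot be told apart.

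Epithelial and stromal cells were compared first in the vehicle group of the insulin experiment, where about as large a share of these genes as of all genes differed. The isomerases PDIA3, PDIA6 and P4HB and the oxidase ERO1A were higher in epithelial cells, the stress sensors ERN1 and EIF2AK3 and the J-domain cochaperones were higher in stromal cells, and the major chaperones HSPA5, HSP90B1, CALR and CANX did not pass the test. A gene was called at an adjusted p under 0.05 with a log2 fold change beyond 0.1. Of the 35 genes, 18 were called, 6 with the epithelial and 12 with the stromal level above. Over all protein-coding genes tested 55.9% were called, 28.2% with the epithelial and 27.8% with the stromal level above, so the share of the 35 (51.4%) was near that background. Beyond a log2 fold change of 1 in size, 6 of the 35 were called, against 33.0% of all coding genes. The median log2 fold change of the 35, epithelial minus stromal, was -0.17, beside -0.00223 over all coding genes.

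**Figure D1:**
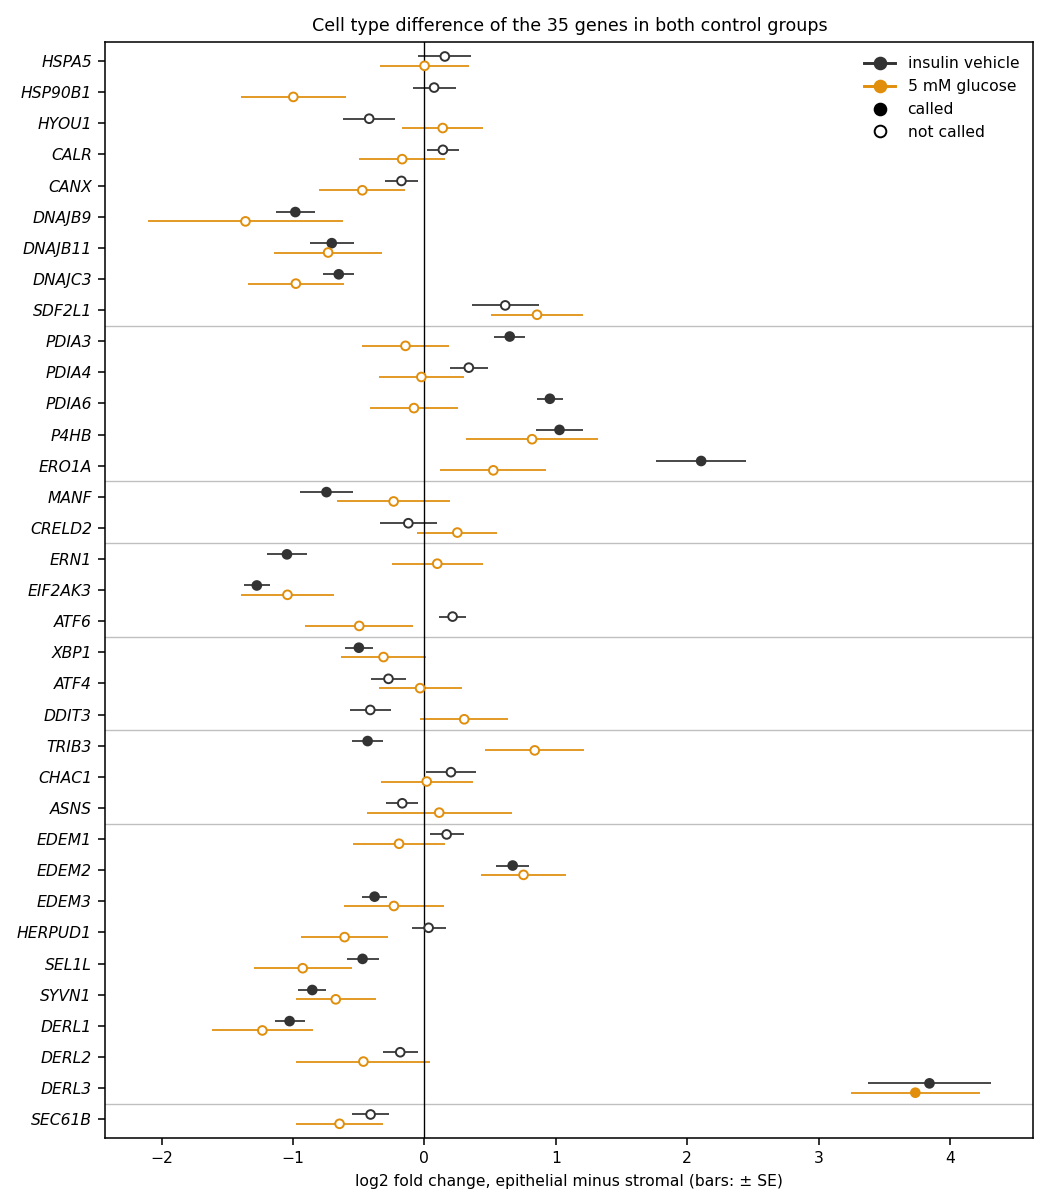
Log2 fold change, epithelial minus stromal, of the 35 genes (rows, grouped by role with grey lines between roles) in the insulin vehicle group (black) and at 5 mM glucose (orange), with bars of 1 SE; filled points were called. 18 genes were called in the vehicle group and 1, DERL3, at 5 mM glucose, where the bars are wider.

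Among the chaperones, the levels of HSPA5, HSP90B1 and CALR overlapped between cell types, and none of the general chaperones was called. HSPA5 (BiP), the ER member of the heat shock 70 family and the partner that holds the sensors inactive, stood at 1768, 1154 and 973 CPM in epithelial replicates 1 to 3 with vehicle and at 1182, 1089 and 1148 CPM in stromal replicates. The epithelial libraries lay on both sides of the stromal ones, with replicate 1 highest, and the log2 fold change of HSPA5 was 0.16 (SE 0.20, adjusted p = 0.546). HSP90B1 (GRP94), the ER member of the heat shock 90 family, had a log2 fold change of 0.074 (SE 0.16, adjusted p = 0.722). Without replicate 1 the log2 fold changes turned sign, to -0.081 for HSPA5 and -0.11 for HSP90B1. The lectin chaperones CALR and CANX, which bind glycoproteins during folding, differed by 0.14 (SE 0.12) and -0.17 (SE 0.12) on the log2 scale, and HYOU1, a nucleotide exchange factor for BiP, by -0.42 (SE 0.20, adjusted p = 0.132). SDF2L1, a component of the BiP and DNAJB11 complex, had 0.61 (SE 0.26, adjusted p = 0.102). The libraries of CANX, HYOU1 and SDF2L1 did not overlap between cell types, and neither they nor the other 3 genes of this paragraph were called.

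The J-domain cochaperones, which bring substrates to BiP and drive its ATPase, were higher in stromal cells with vehicle. DNAJB9, known as an XBP1 target, was measured at 49.9, 46.2 and 37.6 CPM in the epithelial vehicle replicates and 80.5, 92.9 and 92.3 CPM in the stromal ones. All 3 stromal values were above all 3 epithelial values, with a log2 fold change of -0.98 (SE 0.15, adjusted p = 0.00574). DNAJB11 was at 43.0, 36.8 and 32.1 CPM against 53.5, 73.8 and 57.4 CPM, and DNAJC3, an inhibitor of PERK, at 110, 86.6 and 88.0 CPM against 151, 142 and 157 CPM. Neither pair of groups overlapped. The log2 fold changes were -0.71 (SE 0.17, adjusted p = 0.0216) for DNAJB11 and -0.65 (SE 0.12, adjusted p = 0.00997) for DNAJC3. Such separation was common, as 52.3% of coding genes separated the cell types over all insulin libraries. Over all glucose libraries DNAJB9, DNAJB11 and DNAJC3 overlapped between cell types. None of them was called by edgeR at 5 mM glucose (adjusted p = 0.274, 0.284 and 0.123).

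Of the 5 disulphide isomerase and oxidase genes of this set, 4 ran the other way and were higher in epithelial cells with vehicle. A further list, which mixes other disulphide isomerases with cochaperones and prolyl isomerases, had more genes higher in stromal cells, as given below. Its disulphide isomerases are not given apart. P4HB (protein disulphide isomerase, which also serves collagen prolyl hydroxylase as a subunit) was measured at 1506, 1442 and 1092 CPM in epithelial and 593, 722 and 671 CPM in stromal vehicle replicates. PDIA6 was at 262, 263 and 238 CPM against 131, 137 and 129 CPM. Both genes had every epithelial library above every stromal library, with log2 fold changes of 1.03 (SE 0.18, adjusted p = 0.00822) for P4HB and 0.95 (SE 0.10, adjusted p = 0.00246) for PDIA6. PDIA3, which works with the lectin chaperones on glycoproteins, was at 688, 695 and 600 CPM and 411, 461 and 403 CPM, again without overlap, with 0.65 (SE 0.12, adjusted p = 0.0101). ERO1A, the oxidase that recharges the isomerases and a known hypoxia target, showed the widest gap of these 5, at 591, 518 and 326 CPM in epithelial and 81.8, 115 and 137 CPM in stromal replicates. Its lowest epithelial library, replicate 3, still stood above the highest stromal one, and the log2 fold change was 2.11 (SE 0.34, adjusted p = 0.00711). PDIA4 had 0.34 (SE 0.14, adjusted p = 0.109) and was not called.

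Of the 2 secreted stress proteins, MANF, a protective ER factor released on calcium loss, was higher in stromal cells, at 57.1, 47.2 and 41.5 CPM in epithelial and 67.5, 89.1 and 90.2 CPM in stromal replicates, with a log2 fold change of -0.75 (SE 0.20, adjusted p = 0.0313). CRELD2, often induced beside MANF, was at 22.1, 14.0 and 15.0 CPM and 19.2, 22.6 and 14.3 CPM. The ranges of CRELD2 overlapped, and its log2 fold change was -0.12 (SE 0.22, adjusted p = 0.656).

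Both kinase sensors were higher in stromal cells and the third sensor was not called. EIF2AK3 (PERK), which phosphorylates the translation factor eIF2alpha, was measured at 42.8, 40.5 and 42.9 CPM in epithelial replicates and 108, 106 and 95.2 CPM in stromal replicates. ERN1 (IRE1), the kinase and endonuclease that splices XBP1, was at 13.8, 13.9 and 13.6 CPM and 25.1, 26.5 and 35.6 CPM. Stromal libraries were above epithelial libraries without overlap for both, and the log2 fold changes were -1.28 (SE 0.10, adjusted p = 0.00138) for EIF2AK3 and -1.05 (SE 0.15, adjusted p = 0.00513) for ERN1. ATF6, whose cleaved form raises chaperone genes, was at 76.1, 68.6 and 62.0 CPM against 60.6, 60.4 and 58.3 CPM. Its epithelial libraries lay above its stromal ones, by 0.21 (SE 0.10, adjusted p = 0.132) on the log2 scale.

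Of the transcription factors, XBP1 was called and ATF4 and DDIT3 were not. XBP1 stood at 42.7, 42.5 and 40.4 CPM in epithelial and 54.2, 62.2 and 63.1 CPM in stromal replicates, with stromal libraries above epithelial ones and a log2 fold change of -0.50 (SE 0.11, adjusted p = 0.0164). Counts per gene do not tell the spliced from the unspliced XBP1 transcript. ATF4, which restores amino acid supply under stress, had -0.27 (SE 0.13, adjusted p = 0.142) and DDIT3 (CHOP), which favours cell death, -0.41 (SE 0.16, adjusted p = 0.0818). Among their targets, TRIB3, a pseudokinase that restrains ATF4 signalling, was higher in stromal cells at 47.3, 31.1 and 36.7 CPM against 56.3, 48.5 and 50.2 CPM. The groups of TRIB3 did not overlap, with -0.43 (SE 0.12, adjusted p = 0.0332). Its call was lost with the DESeq2 Wald test, without the replicate block and without replicate 2 or 3. TRIB3 was not the only vehicle call lost in this way. Leaving out 1 replicate gave 12 to 15 calls among the 35 genes, against 18 in the full fit. CHAC1, which degrades glutathione, and ASNS, asparagine synthetase, had log2 fold changes of 0.20 (SE 0.19) and -0.17 (SE 0.12), at adjusted p = 0.408 and 0.285.

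ER-associated degradation, which sends misfolded proteins to the proteasome, held genes of both directions. DERL3, one of the derlin membrane proteins of this pathway, had the widest difference of all 35 genes on the log2 scale, at 7.07, 7.69 and 5.17 CPM in epithelial replicates and 0.172, 0.572 and 0.686 CPM in stromal replicates. Stromal counts of DERL3 were 2, 6 and 6 reads, so its log2 fold change of 3.84 (SE 0.47, adjusted p = 0.00330) rests on few reads in that cell type. The related DERL1 ran in the opposite direction, at 87.3, 89.8 and 90.6 CPM in epithelial and 159, 189 and 206 CPM in stromal replicates. For each of these 2 derlins the cell types did not overlap, and DERL1 had a log2 fold change of -1.03 (SE 0.11, adjusted p = 0.00268). DERL2 was not called, at -0.18 (SE 0.13).

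The ubiquitin ligase of this pathway, SYVN1 (HRD1), and its partner SEL1L were both higher in stromal cells. SYVN1 was at 41.3, 39.0 and 37.3 CPM in epithelial and 68.8, 70.1 and 75.9 CPM in stromal replicates, and SEL1L at 263, 297 and 250 CPM and 414, 366 and 353 CPM. Neither gene overlapped between cell types, and the log2 fold changes were -0.85 (SE 0.11, adjusted p = 0.00343) and -0.47 (SE 0.12, adjusted p = 0.0279). Of the EDEM proteins, which mark misfolded glycoproteins by trimming mannose, EDEM2 was higher in epithelial cells (38.9, 41.8 and 39.4 CPM against 28.6, 26.8 and 21.2 CPM), with 0.67 (SE 0.12, adjusted p = 0.0103). EDEM3 was higher in stromal cells (134, 157 and 145 CPM against 179, 197 and 195 CPM), with -0.38 (SE 0.10, adjusted p = 0.0265), and EDEM1 was not called at 0.17 (SE 0.13). HERPUD1, a stress-induced scaffold of the ligase complex, had 0.032 (SE 0.13, adjusted p = 0.846). SEC61B, a subunit of the channel through which proteins enter the ER, was at 44.7, 40.3 and 45.4 CPM and 49.9, 65.5 and 60.3 CPM and had -0.41 (SE 0.14, adjusted p = 0.0599), not called.

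The same comparison at the other insulin doses used other libraries of the same experiment. At 1 ng/mL insulin 22 of the 35 genes were called, 8 with the epithelial and 14 with the stromal level above, beside 59.4% of all coding genes (29.9% and 29.5%). At 10 ng/mL 17 were called, 6 and 11, beside 54.9% of coding genes (27.3% and 27.6%). Without replicate 3 this count was 10, in a fit whose share of called coding genes is not given here. Beyond a log2 fold change of 1 there were 5 at each dose, beside 33.9% of coding genes at 1 ng/mL and 32.7% at 10 ng/mL. In all 3 insulin groups PDIA3, PDIA6, P4HB, ERO1A, EDEM2 and DERL3 were called higher in epithelial cells, and DNAJB9, DNAJB11, DNAJC3, MANF, ERN1, EIF2AK3, XBP1, SEL1L, SYVN1 and DERL1 higher in stromal cells. No gene was called in opposite directions, and 13 were called in none of the 3. The share of all coding genes called in all 3 groups, or in none, is not given here. The groups also carry the same replicate numbers, so this agreement is not read as a trait of these genes. PDIA4, EDEM1 and DDIT3 were called at 1 ng/mL alone, with log2 fold changes of 0.45 (SE 0.11, adjusted p = 0.0166), 0.39 (SE 0.11, adjusted p = 0.0285) and -0.59 (SE 0.15, adjusted p = 0.0173). The interaction of cell type with 1 ng/mL insulin, given with the treatments, called none of these 3. SEC61B was called at 1 and at 10 ng/mL, with -0.49 (SE 0.11) and -0.46 (SE 0.10). EDEM3 and TRIB3 were called with vehicle and at 1 ng/mL but not at 10 ng/mL (adjusted p = 0.0517 and 0.0732).

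Over all 18 insulin libraries, 6 of the 35 genes had every epithelial library above every stromal one and 13 had every stromal library above every epithelial one, beside 26.0% and 26.3% of coding genes. EIF2AK3 ran from 36.5 to 43.1 CPM (median 40.5) in 9 epithelial libraries and from 87.2 to 113 CPM (median 104) in 9 stromal libraries. PDIA6 ran from 223 to 263 CPM (median 249) over the epithelial libraries and from 124 to 137 CPM (median 131) in stromal libraries. For both genes the gap between the cell types was wider than the spread within either. ERO1A ran from 292 to 598 CPM in epithelial libraries, where the 3 replicate 3 libraries were lowest, and from 81.8 to 137 CPM in stromal libraries, where the 3 replicate 1 libraries were lowest. Libraries of the same replicate number at different doses are not independent where they share cells.

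**Figure D2:**
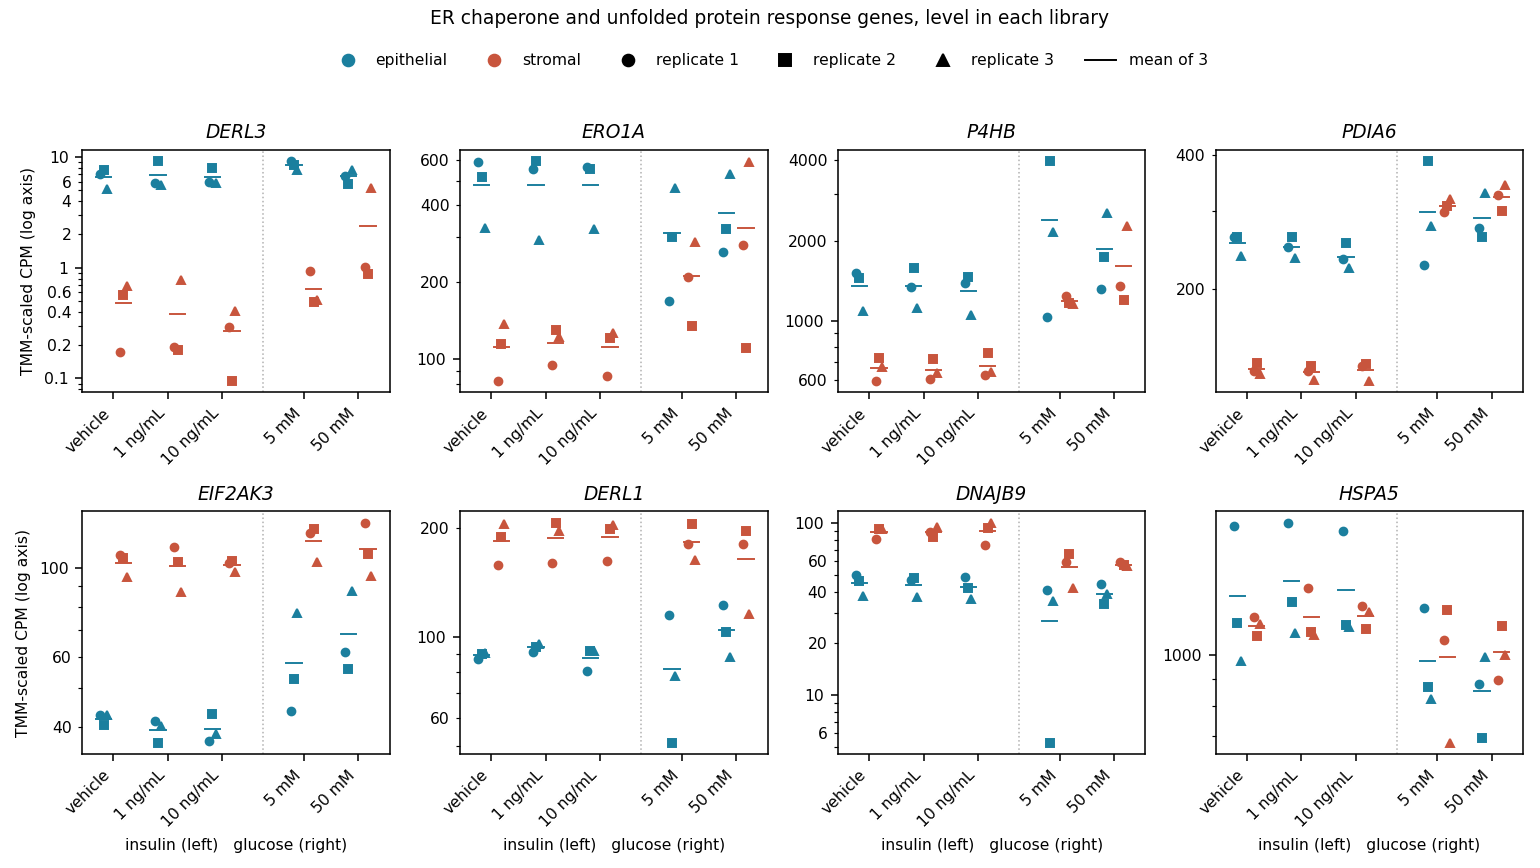
Level of 8 of the genes in all 30 libraries, as TMM-scaled CPM on a log axis that differs between panels, by insulin dose (left of the dotted line) and glucose concentration (right); each point is a library (shape gives the replicate number) and each bar the mean of 3. DERL3, ERO1A, P4HB and PDIA6 were higher in epithelial and EIF2AK3, DERL1 and DNAJB9 in stromal libraries of the insulin experiment, while HSPA5 was highest in replicate 1 of the epithelial libraries at each insulin dose. CPM was scaled separately in each experiment.

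In the glucose experiment the same contrast passed the test for a single gene. At 5 mM glucose DERL3 stood at 9.20, 8.55 and 7.58 CPM in epithelial and 0.945, 0.491 and 0.511 CPM in stromal replicates, with a log2 fold change of 3.74 (SE 0.49, adjusted p = 0.00690). It was the only 1 of the 35 called (2.86%), beside 21.5% of coding genes. The median SE of the 35 genes was 0.349 on the log2 scale, against 0.133 in the insulin vehicle comparison. Next in size were DNAJB9 at -1.36 (SE 0.74, adjusted p = 0.274), DERL1 at -1.23 (SE 0.38, adjusted p = 0.0741), EIF2AK3 at -1.04 (SE 0.35, adjusted p = 0.0941) and HSP90B1 at -0.998 (SE 0.40, adjusted p = 0.149), none of them called. With the DESeq2 Wald test 3 of the 35 were called, DERL3 with DERL1 and EIF2AK3, and without replicate 1 also 3, DERL3 with DERL1 and DNAJB9. The shares of all coding genes called in these fits are not given here. The value of DNAJB9 was -1.92 without replicate 1, -0.38 without replicate 2 and -2.07 without replicate 3.

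Several genes in 1 library, epithelial replicate 2 at 5 mM, stood apart from the other 5 epithelial libraries of this experiment (they were chosen after their values were seen). DNAJB9 was at 40.7, 5.27 and 35.1 CPM in the 5 mM epithelial replicates and 44.0, 33.9 and 38.7 CPM in the 50 mM ones, and DERL2 at 34.9, 8.78 and 31.5 CPM and 39.9, 35.2 and 37.4 CPM. P4HB was at 1033, 3991 and 2161 CPM and 1320, 1730 and 2534 CPM. Replicate 2 at 5 mM was thus lowest for DNAJB9 and DERL2 and highest for P4HB. HSP90B1, ATF6, DNAJC3, EDEM3 and SEL1L were also lowest there, at 358, 27.1, 30.0, 65.2 and 137 CPM, and PDIA4, PDIA6 and HYOU1 highest, at 438, 389 and 339 CPM. Epithelial markers in that library stood at 143% and stromal markers at 3.36% of their own cell type's mean, and their part in these values was not tested. The library also stood apart across genes in general. Chi-square per degree of freedom was 317 between it and each of replicates 1 and 3 at 5 mM, and 80.6 between replicates 1 and 3. Without replicate 2 the call of DERL3 at 5 mM was kept, as the single call, at a log2 fold change of 3.57.

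At 50 mM glucose none of the 35 genes was called by edgeR, beside 17.6% of coding genes. An unadjusted p under 0.05 was reached by 7 (the epithelial level above in 1, the stromal in 6), beside 36.9% of coding genes, and the DESeq2 Wald test called 4, DERL3 for epithelial and HSP90B1, DERL1 and HERPUD1 for stromal cells. Without replicate 1 edgeR called no coding gene at all in this comparison. The stromal replicate 3 at this concentration had the epithelial markers at 59.8% of the epithelial mean and the stromal markers at 47.0% of the stromal mean; the epithelial markers summed to 6200 CPM there, against 8735 to 19071 CPM in epithelial libraries. DERL3 was at 1.01, 0.875 and 5.31 CPM in the stromal replicates at 50 mM and 6.76, 5.65 and 7.67 CPM in the epithelial ones. P4HB was at 1353, 1194 and 2266 CPM, ERO1A at 279, 110 and 591 CPM and DERL1 at 181, 196 and 116 CPM in those stromal replicates. Stromal replicate 3 was highest for DERL3, P4HB and ERO1A and lowest for DERL1, 4 genes chosen after their values were seen. DNAJB9, by contrast, was at 59.1, 57.3 and 56.0 CPM, with replicate 3 close to the others. The part of the marker level in these values was not tested. Without replicate 3, 5 genes were called: DERL3 at 2.71 and EDEM2 at 0.69 on the log2 scale, higher in epithelial cells, and EIF2AK3 at -1.01, HERPUD1 at -0.80 and DERL1 at -0.74, higher in stromal cells. The share of all coding genes called in that fit or by DESeq2 is not given here. The added calls are therefore not read as a trait of these genes.

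Over all 12 glucose libraries DERL3 alone had every epithelial above every stromal library, and CANX, EIF2AK3, HSP90B1 and SYVN1 the reverse, beside 10.2% and 12.7% of coding genes. EIF2AK3 ran from 43.8 to 87.6 CPM over the epithelial libraries and from 95.6 to 130 CPM in stromal libraries. SYVN1 ran from 31.9 to 49.7 CPM and from 52.3 to 67.1 CPM, and CANX from 476 to 570 CPM and from 595 to 775 CPM. For SYVN1 and CANX the gap between the cell types was small beside the spread within them. Over the 5 contrasts of cell type, 17 of the 35 genes kept 1 sign, 5 with the epithelial level above and 12 with the stromal level above. The share of all coding genes that kept 1 sign is not given here. Contrasts of the same experiment carry the same replicate numbers and may share cells, so this split is not read as a lean of these genes.

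The calls of the disulphide genes differed between the 2 experiments, and the difference itself was tested. PDIA3 and PDIA6 had log2 fold changes of 0.65 (SE 0.12) and 0.95 (SE 0.10) with insulin vehicle and -0.14 (SE 0.33) and -0.080 (SE 0.33) at 5 mM glucose, where scaling by library totals alone turned the signs, to 0.073 and 0.14. An interaction of cell type with experiment, in a fit of the 12 control libraries that was added after the values were seen, called none of the 35 genes and 0.0% of coding genes. An unadjusted p under 0.05 was reached by 6 of the 35, beside 10.4% of coding genes. These were PDIA6 at 1.02 (SE 0.30, adjusted p = 0.387), TRIB3 at -1.28 (SE 0.38, adjusted p = 0.387), ERN1 at -1.15 (SE 0.35, adjusted p = 0.390), ERO1A at 1.57 (SE 0.54, adjusted p = 0.428), PDIA3 at 0.78 (SE 0.30, adjusted p = 0.452) and HSP90B1 at 1.06 (SE 0.42, adjusted p = 0.465), as insulin vehicle minus 5 mM glucose. The call at vehicle and its absence at 5 mM are therefore not shown to differ for any of the 35 genes in the edgeR fit. The insulin vehicle was present in 1 experiment only, so the vehicle and the experiment cannot be told apart.

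Other genes of the secretory pathway were drawn from 7 lists of 134 genes in all, of which 131 matched an identifier and 130 were tested. In the insulin vehicle comparison 17 were higher in epithelial cells, 61 were higher in stromal cells and 52 were not called, beside 28.2% and 27.8% of all coding genes called in those directions. At 5 mM glucose 1 was higher in epithelial cells and 13 in stromal cells, 14 of 130 in all, beside 21.5% of coding genes called in either direction. With vehicle, the genes of ER exit, which load cargo into COPII vesicles, had 2 of 20 higher in epithelial and 14 in stromal cells. Translocon and signal peptidase genes had 1 and 9 of 17, other disulphide isomerases, cochaperones and prolyl isomerases 1 and 11 of 22, and other degradation genes 1 and 8 of 18. Oligosaccharyltransferase and glycan trimming genes had 1 and 6 of 15, other stress regulators 5 and 8 of 21, and other amino acid genes that depend on ATF4 6 and 5 of 17. In both comparisons SERPINH1, the collagen chaperone, was higher in stromal cells, with log2 fold changes, epithelial minus stromal, of -3.61 (SE 0.27) with vehicle and -3.40 (SE 0.39) at 5 mM. The same held for UGGT2, a glycoprotein folding sensor, at -3.94 and -4.90, for KDELR3, a retrieval receptor for ER proteins, at -2.07 and -2.37, and for NUPR1, a stress-induced regulator of transcription, at -4.37 and -3.86. The prolyl isomerases FKBP7 and FKBP14 stood at -2.85 and -3.03 and at -2.64 and -2.82. The COPII coat genes SEC24D and SEC23A, the stress factor ATF5 and the ER membrane protein WFS1 were also higher in stromal cells in both, at values from -1.31 to -2.05. TUSC3, an oligosaccharyltransferase subunit, had -0.39 and -1.29.

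Glucose was compared within each cell type, at 50 against 5 mM, and no gene of the 35 was called in either by edgeR or by DESeq2. In epithelial cells the count of 0 stood beside 0.0% of coding genes, and 1 reached an unadjusted p under 0.05 (2.86%), beside 1.54% of coding genes. That gene was TRIB3, at 52.1, 49.6 and 36.2 CPM at 5 mM and 28.5, 22.5 and 31.9 CPM at 50 mM. All 3 libraries at 50 mM were below all 3 at 5 mM, with a log2 fold change of -0.73 (SE 0.28) at an unadjusted p of 0.0409 and an adjusted p of 0.804. Next by p were DERL2 at 0.79 (SE 0.43), whose replicate 2 at 5 mM was the low library given above, and DDIT3 at -0.46 (SE 0.27). DDIT3 was at 28.8, 27.2 and 30.1 CPM and 17.3, 17.0 and 30.8 CPM, lower at 50 mM in 2 of 3 pairs. Without replicate 2 ASNS was called lower at 50 mM, at -0.68, with 146, 50.1 and 78.5 CPM at 5 mM and 84.3, 62.5 and 53.7 CPM at 50 mM. ASNS was lower in replicates 1 and 3 and higher in replicate 2. How many coding genes were called without replicate 2 is not given here, so this call is not read as an effect of glucose.

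In stromal cells no gene of the 35 was called, beside 0.0% of coding genes, and none reached an unadjusted p under 0.05, beside 4.96% of coding genes. The 3 smallest p-values belonged to SEL1L at -0.27 (SE 0.13), CRELD2 at -0.21 (SE 0.11) and DERL3 at 1.49 (SE 0.79). SEL1L was at 349, 427 and 298 CPM and 335, 348 and 219 CPM and CRELD2 at 27.3, 35.2 and 14.1 CPM and 22.9, 32.4 and 11.9 CPM. Both were lower at 50 mM in 3 of 3 pairs with overlapping groups, and the value of DERL3 without replicate 3, described above, was 0.39. HSPA5 was at 1071, 1219 and 679 CPM and 896, 1139 and 1003 CPM in stromal and 1229, 867 and 823 CPM and 881, 695 and 990 CPM in epithelial cells, with overlapping groups in both.

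None of these genes was called, by edgeR or by DESeq2, in any of the 6 insulin comparisons in which it was tested. The log2 fold changes stayed between -0.19 and 0.21 over all 6, with median SEs of 0.050 to 0.061. In epithelial cells 1 ng/mL against vehicle called 0.0% of coding genes, and 3 of the 35 reached an unadjusted p under 0.05, beside 2.87% of coding genes. These were HYOU1 at 0.14 (SE 0.046), EDEM1 at 0.14 (SE 0.048) and HSPA5 at 0.11 (SE 0.044), each higher with insulin in 3 of 3 pairs, at an adjusted p of 1.00. At 10 ng/mL against vehicle 0.113% of coding genes were called, and 5 of the 35 reached an unadjusted p under 0.05, beside 6.78% of coding genes. The smallest p-values belonged to ATF4 at 0.10 (SE 0.040), PDIA6 at -0.10 (SE 0.041) and ASNS at 0.10 (SE 0.043). ATF4 and ASNS were higher and PDIA6 lower at 10 ng/mL in 3 of 3 pairs, with overlapping groups and adjusted p-values of 0.595 to 0.675.

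Between the insulin doses, 10 against 1 ng/mL in epithelial cells, 0.0% of coding genes were called and 7 of the 35 reached an unadjusted p under 0.05, beside 4.29% of coding genes. 6 of the 7 were lower at 10 ng/mL: EDEM1, PDIA4, MANF, HSP90B1, PDIA3 and CALR, each in 3 of 3 pairs, beside 2.23% of coding genes lower, while ATF6 was higher in 2 of 3. EDEM1 was at 113, 121 and 103 CPM with vehicle, 123, 132 and 116 CPM at 1 ng/mL and 107, 118 and 101 CPM at 10 ng/mL. PDIA4 was at 226, 170 and 174 CPM, 218, 201 and 180 CPM and 211, 165 and 158 CPM in that order. MANF was at 57.1, 47.2 and 41.5 CPM, 55.2, 52.4 and 46.8 CPM and 50.6, 42.9 and 41.2 CPM. EDEM1 was highest at 1 ng/mL in each replicate, whereas PDIA4 and MANF in replicate 1 were highest with vehicle. The log2 fold changes of 10 against 1 ng/mL were -0.18 (SE 0.046) for EDEM1, -0.16 (SE 0.049) for PDIA4 and -0.19 (SE 0.063) for MANF, at adjusted p-values of 0.964 to 0.983. Without replicate 1 PDIA4 was called, at -0.23. How many coding genes were called in that fit is not given here, so this call is not read as an effect of insulin. The epithelial comparisons share libraries, so their values are not separate evidence.

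In stromal cells DERL3 fell below the filter on low counts and 34 of the 35 genes were tested. At 1 ng/mL against vehicle 0.0% of coding genes were called, and ATF6 was the only 1 of the 34 at an unadjusted p under 0.05, beside 5.03% of coding genes. ATF6 was at 60.6, 60.4 and 58.3 CPM with vehicle, 65.6, 66.5 and 65.0 CPM at 1 ng/mL and 55.5, 66.7 and 70.9 CPM at 10 ng/mL. The 1 ng/mL libraries were all above the vehicle ones, at a log2 fold change of 0.13 (SE 0.060), while the 10 ng/mL libraries lay on both sides of them. EDEM2 at 0.17 (SE 0.082) and ASNS at 0.11 (SE 0.055) followed by p. At 10 ng/mL against vehicle 0.0% of coding genes were called, and ASNS was the 1 gene at an unadjusted p under 0.05, beside 2.73% of coding genes. ASNS was at 179, 195 and 159 CPM with vehicle and 189, 214 and 188 CPM at 10 ng/mL, higher in 3 of 3 pairs, at a log2 fold change of 0.15 (SE 0.052) and an adjusted p of 0.999. DERL2 at 0.13 (SE 0.066) and TRIB3 at 0.11 (SE 0.062) came next. Between 10 and 1 ng/mL 0.0244% of coding genes were called, none of the 34 reached an unadjusted p under 0.05, beside 3.68%, and the smallest p-values belonged to SEC61B at -0.11 (SE 0.060), CRELD2 at 0.15 (SE 0.10) and HYOU1 at 0.073 (SE 0.055).

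**Figure D3:**
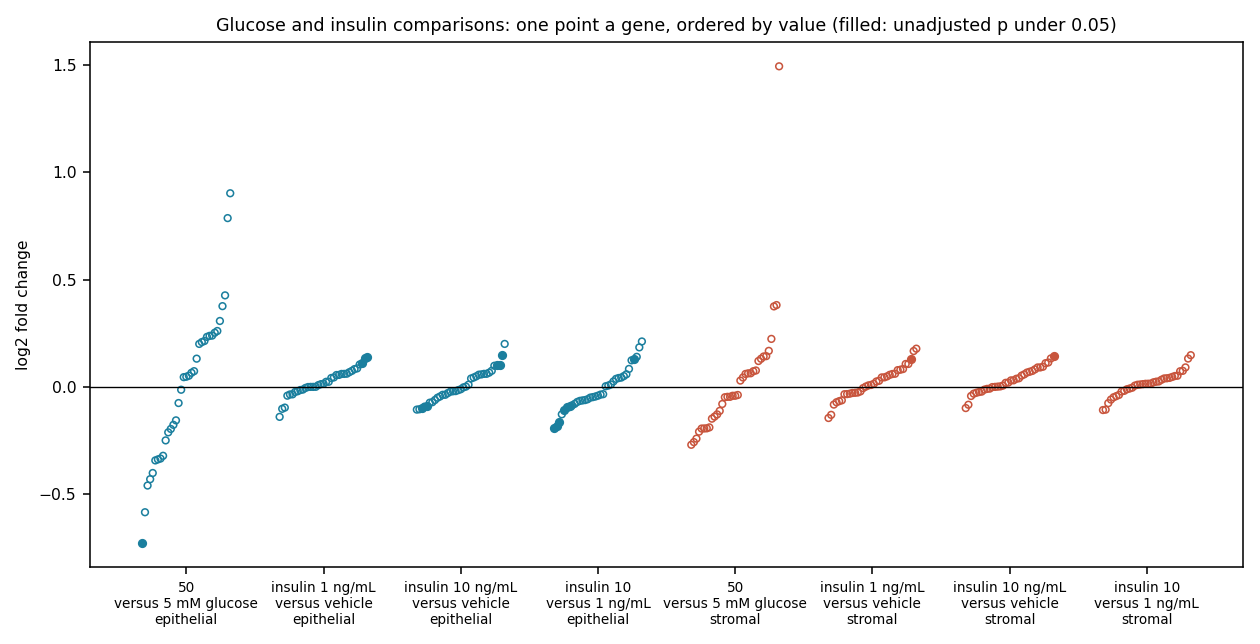
Log2 fold change of each tested gene of the 35 in the 8 treatment comparisons, 1 point a gene in order of value within each comparison, epithelial cells in blue and stromal cells in red. DERL3 was not tested, and has no point, in the stromal insulin comparisons. Filled points had an unadjusted p under 0.05 and none was called. The insulin changes lay between -0.19 and 0.21, and the glucose changes spread more widely, with TRIB3 at -0.73 as the only filled glucose point.

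Whether a treatment acted differently in the 2 cell types was tested by interaction terms, and none of the 35 genes was called by edgeR or by DESeq2, beside 0.0% of coding genes for glucose, 0.659% for 1 ng/mL insulin and 0.0% for 10 ng/mL insulin. The smallest unadjusted p for glucose belonged to DERL3, at -1.88 (SE 0.78, adjusted p = 0.659), epithelial minus stromal effect, and it was -0.95 without replicate 3, whose stromal library at 50 mM held 5.31 CPM of DERL3 beside epithelial markers at 59.8%. For insulin it belonged to HYOU1 at 1 ng/mL, 0.21 (SE 0.073, adjusted p = 0.436), and to HERPUD1 at 10 ng/mL, -0.16 (SE 0.062, adjusted p = 1.00). At unadjusted p under 0.05 there were 1, 2 and 1 of the 35, the other being EDEM1 at 1 ng/mL with 0.23 (SE 0.083, adjusted p = 0.473), beside 7.65%, 6.69% and 4.05% of coding genes. Of the 130 other secretory pathway genes, 1 was called in the 8 treatment comparisons, CEBPB, a transcription factor of the stress response, higher at 10 ng/mL insulin than with vehicle in epithelial cells.

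How much of each gene's variation went with cell type, replicate number and treatment was described by splitting the sum of squares of log2(CPM + 1). The shares were not adjusted for degrees of freedom, of which replicate number had more than cell type in both experiments. In the insulin experiment the median share over the 35 genes was 76.6% for cell type, 15.5% for replicate number within cell type and 2.44% for treatment within cell type, beside medians of 71.5%, 15.8% and 1.91% over all coding genes. Cell type was the largest share for 27 of the 35 and passed 90% for 11, led by EIF2AK3 (98.0%), PDIA6 (97.9%) and DERL3 (96.6%). Replicate number was the largest share for the other 8, among them HSPA5 (83.0%), HSP90B1 (78.0%), HERPUD1 (76.8%) and CRELD2 (74.8%). HSPA5 in epithelial cells was at 1795, 1265 and 1105 CPM at 1 ng/mL and 1727, 1145 and 1132 CPM at 10 ng/mL, so replicate 1 was highest at every dose. Treatment was the largest share for none and reached at most 15.7%, for EDEM1.

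In the glucose experiment the median share over the 35 genes was 47.3% for replicate number, 16.5% for cell type and 6.13% for treatment, beside 36.6%, 31.4% and 7.35% over all coding genes. These medians rested on single replicates. Without replicate 1 they were 29.4%, 31.2% and 12.2%, so that cell type stood above replicate number, without replicate 2 they were 48.4%, 26.1% and 8.81%, and without replicate 3 they were 34.7%, 22.8% and 7.15%. Replicate number was the largest share for 22 of the 35 and cell type for 10. In this experiment replicate number had more degrees of freedom than cell type or treatment. A larger share for it does not by itself show an effect of the replicate. ASNS (85.4%), MANF (82.8%) and PDIA3 (80.2%) varied most with the replicate, and DERL3 (78.1%), CANX (77.5%), SYVN1 (74.9%) and EIF2AK3 (73.9%) most with cell type. ASNS in stromal cells was at 85.8, 137 and 42.0 CPM at 5 mM and 62.3, 120 and 40.3 CPM at 50 mM, with replicate 2 highest and replicate 3 lowest at both concentrations. MANF in stromal cells was at 53.5, 73.7 and 42.0 CPM and 60.8, 77.1 and 46.9 CPM, with the same order of replicates. The largest treatment share was that of DERL2 (28.0%), whose epithelial replicate 2 at 5 mM was described above.

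**Figure D4:**
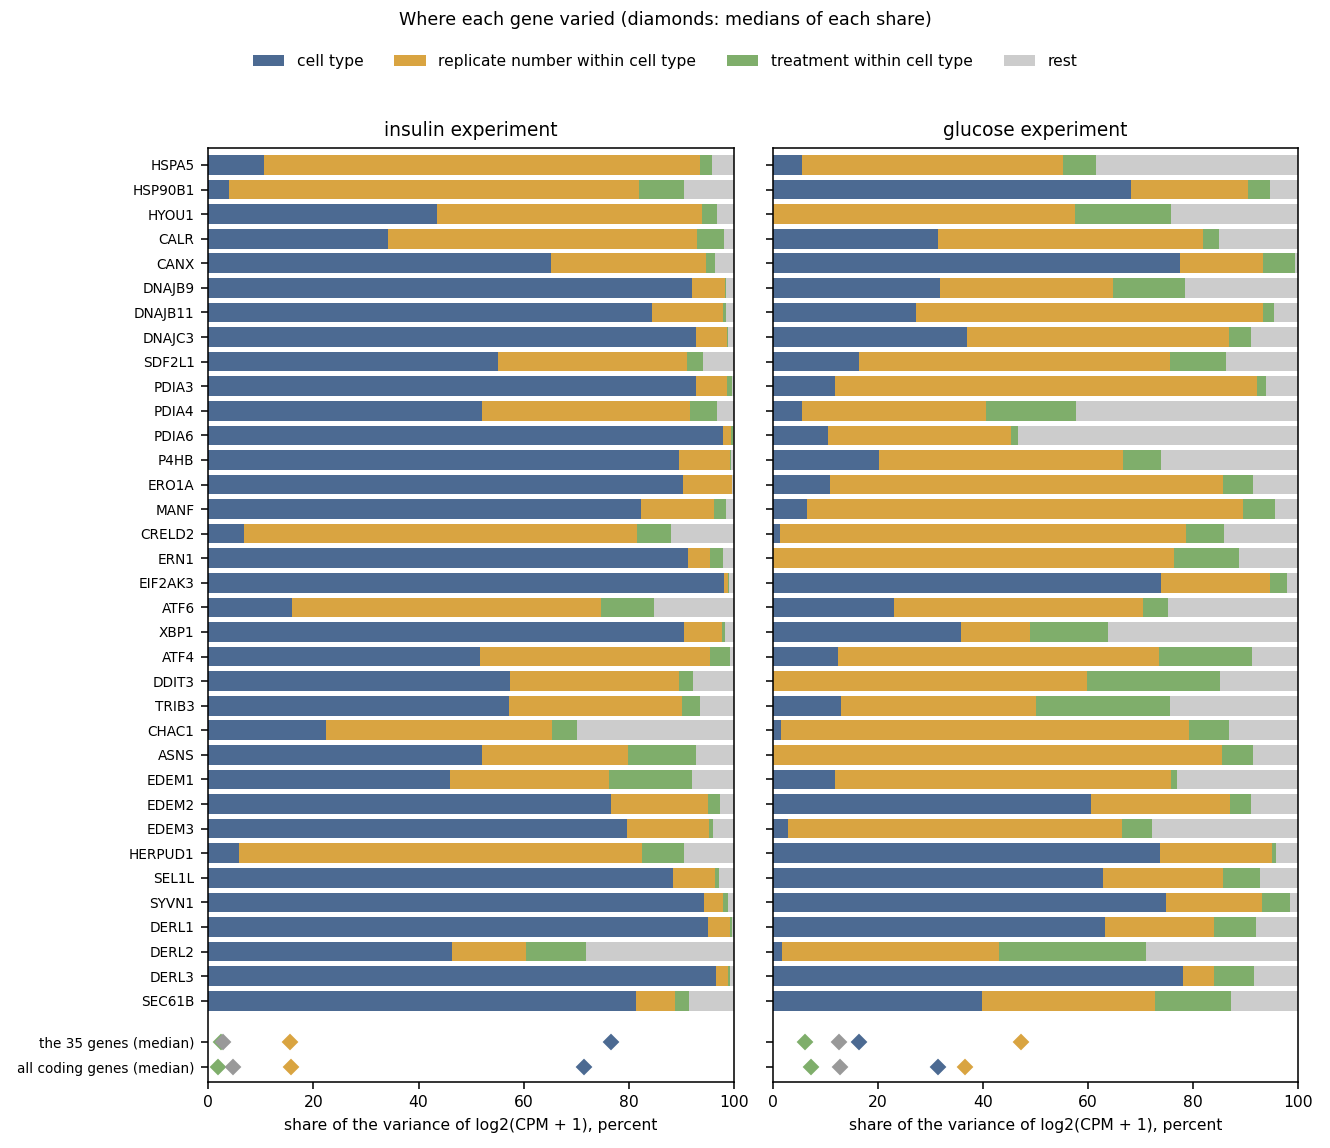
Share of the variance of each gene (percent of the sum of squares of log2(CPM + 1)) between cell types, replicate numbers within cell type, treatments within cell type and the rest, in the insulin (left) and glucose (right) experiment, with medians of each share as diamonds below. Cell type held the largest share for 27 of the 35 genes in the insulin experiment and replicate number for 22 in the glucose experiment. Shares were not adjusted for degrees of freedom, of which replicate number had more than cell type.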

How the data were processed

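RNA of 30 libraries was sequenced from a stranded kit in 75-base reads. Per the labels and the study's methods, the authors aligned the reads with Rsubread, kept uniquely mapped ones and counted them over genes with featureCounts (Ensembl release 96). The strand setting is not given in the sources used here, so reads of antisense or overlapping genes may be shared. The deposited count tables hold whole-number counts per gene identifier, 1 table per experiment. The authors' tables of DESeq2 comparisons hold fold changes and p-values that were not used, and only their gene names and types were.

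The 35 genes and the other gene lists were chosen with earlier results of these data known. Each comparison was fitted over all genes with edgeR 4.0.16 in R 4.3.3 (glmQLFit and glmQLFTest, TMM factors, filterByExpr), with Benjamini-Hochberg adjustment over all genes tested. SEs were derived from the log2 fold change and its F statistic. Following the paired design of the study, the replicate number was a block. Deviations of same-numbered libraries from their group means correlated over genes at 0.210 to 0.852 in 24 pairs of groups within a cell type (all over 0.1), and at 0.0292 to 0.511 in 15 pairs between cell types (12 over 0.1). Percentages of all genes cover the protein-coding genes tested. All 35 genes were named for the cell type comparisons, and for each treatment comparison those called or, with none called, the 3 of smallest p. At most 3 genes of each other list were named, by the size of the smaller of their changes in the vehicle and the 5 mM comparison, among those called in both. Genes that a left-out replicate brought in, and others of the report outside this rule, were chosen after their values were seen.

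The alternatives were RLE factors, every gene with at least 1 count, no block, DESeq2 1.42.0, leaving out each replicate, all libraries in 1 fit, a log2 fold change beyond 1 and a pseudocount of 0.1 in place of 1. Scaling by library totals and the test between experiments were added after the data were seen. The fit was tested on simulated data. Replicates of each group were compared pairwise by chi-square, and each pair differed by more than sampling noise. Chi-square per degree of freedom was 317 between epithelial replicate 2 at 5 mM glucose and each of replicates 1 and 3. In all other pairs it ran from 16.3 to 169.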

Additional observations from a re-analysis of the deposited data

How the results depend on the processing

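With a log2 fold change beyond 1 the cell type counts of the 35 genes were 6 with vehicle, 5 at 1 ng/mL and 5 at 10 ng/mL insulin. At 5 mM glucose the DESeq2 Wald test called 3. At 50 mM, where edgeR called none, 1 was called with library totals alone, 1 with every gene of at least 1 count (DERL3 in both) and 4 by DESeq2. Leaving out each replicate gave 12 to 15 calls with vehicle, 16 to 19 at 1 ng/mL, 10 to 17 at 10 ng/mL (10 without replicate 3), 1 to 3 at 5 mM (3 without replicate 1), 0 to 5 at 50 mM (5 without replicate 3), 0 to 1 for glucose in epithelial cells (1 without replicate 2) and 0 to 1 for 10 against 1 ng/mL insulin in epithelial cells (1 without replicate 1). All other treatment and interaction counts were 0 under each alternative. Without the replicate block the cell type counts were 19, 21 and 17 in the insulin experiment, 1 at 5 mM and 0 at 50 mM glucose. With vehicle, TRIB3 was lost and DDIT3 and SEC61B gained without the block. The causes were not tested. Shares of all coding genes called under these alternatives are not given here, so the counts do not set the 35 genes apart from other genes.

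Library totals alone moved the median log2 fold change of all coding genes to 0.11 at 1 ng/mL, 0.22 at 5 mM and 0.18 at 50 mM. At 50 mM the coding genes called were then 1458 with the epithelial and 1346 with the stromal level above, against 870 and 1458 with TMM. At 5 mM the values of uncalled genes turned positive with library totals, to 0.047 for CALR, 0.073 for PDIA3, 0.19 for PDIA4, 0.14 for PDIA6, 0.18 for ATF4 and 0.024 for EDEM1, and without the block HSPA5 turned to -0.020 and PDIA4 to 0.030. Leaving out 1 replicate turned the sign of other uncalled values. With vehicle the ranges were -0.081 to 0.36 for HSPA5, -0.11 to 0.18 for HSP90B1, -0.32 to 0.16 for CRELD2 and -0.12 to 0.11 for HERPUD1. At 5 mM they were -0.14 to 0.26 for HSPA5, -0.17 to 0.14 for PDIA4, -0.27 to 0.071 for PDIA6, -0.57 to 0.30 for MANF, -0.12 to 0.37 for ERN1, -0.12 to 0.11 for ATF4, -0.13 to 0.26 for CHAC1, -0.34 to 0.86 for ASNS, -0.44 to 0.075 for EDEM1, -0.46 to 0.19 for EDEM3 and -0.90 to 0.19 for DERL2. With 3 libraries a group, DERL3 in stromal cells is the gene most limited by depth.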
